A study of Mus musculus with 4 samples.

Results

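The Schlafen genes of the mouse form a cluster on chromosome 11, and 7 of them were examined: Slfn1, Slfn2, Slfn3, Slfn4, Slfn5, Slfn8 and Slfn9. They were found by gene identifier among the 50600 genes of the deposited count tables, and all 7 were present. The 4 libraries were made from T cells of C57BL/6NJ mice, described as primary cells, and form 1 group of 4 biological replicates with no treatment, genotype or time to compare. In the file headers the alignment names carry the terms Th0, activated, 72 h and sorted, and a linked culture protocol is named for CD4+ T cell differentiation. Every library has the same donor entry, sex was not recorded and age is given as unknown. No label says whether the libraries came from separate animals or cultures. Each SD and p-value therefore measures the spread between these 4 libraries, which may be technical in part. Levels of the X chromosome RNA Xist, given below, divide replicates 1 and 2 from replicates 3 and 4. Without a second group, the questions open to these data were how high each member was, how the members ranked against each other, and how far each one varied from library to library.

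Schlafen proteins were named after the German word for sleeping, because forced expression of the founding member held back the growth of thymocytes. The family falls into short members (Slfn1, Slfn2), intermediate members (Slfn3, Slfn4) and long members with a helicase-like region (Slfn5, Slfn8, Slfn9). Many members are induced by type I interferon, several bind or cut tRNA, and in T cells Slfn2 is known for keeping resting cells quiescent and for shielding tRNA from cleavage under oxidative stress.

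The members differ in length and fall into blocks by sequence. The longest coding sequence in the GENCODE M21 transcripts was 1011 bases for Slfn1, 1134 for Slfn2, 1920 for Slfn3, 1806 for Slfn4, 2652 for Slfn5, and 2730 for both Slfn8 and Slfn9. Slfn8 and Slfn9 were identical at 92.7% of aligned coding bases, and Slfn3 and Slfn4 at 91.5%. Among Slfn1, Slfn2, Slfn3 and Slfn4 the other pairs lay between 71.2% and 75.6%. Pairs of Slfn5 with Slfn8 or Slfn9 lay at 62.1% and 62.7%, and pairs of a long with a short or intermediate member between 56.0% and 61.0%. The matrix of coding identities shows these blocks.

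**Figure D1:**
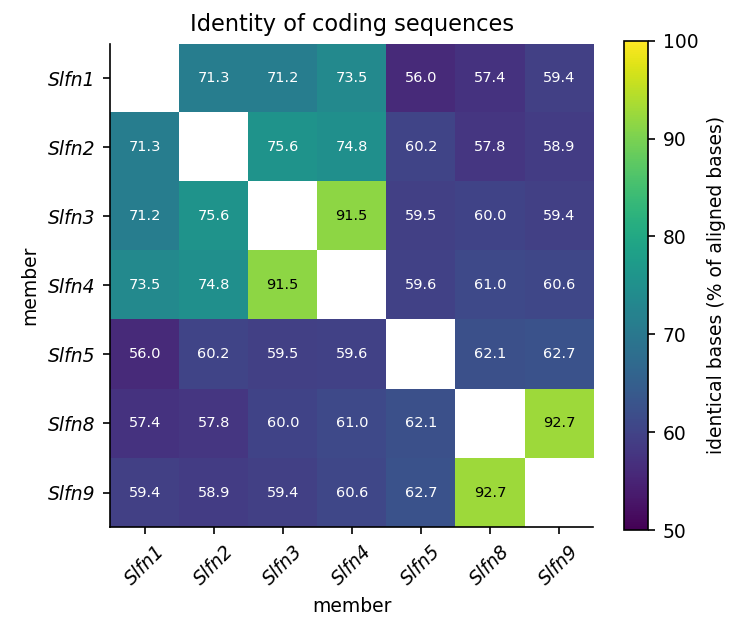
Identity of coding sequences between the 7 members, as identical bases in percent of aligned bases; rows and columns are members and the colour scale runs from 50 to 100 percent. Slfn8 with Slfn9 (92.7%) and Slfn3 with Slfn4 (91.5%) are the pairs above 90%.

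Whole promoter windows did not fall into the blocks of the coding sequences. RefSeq promoter windows on GRCm38.p6, from 250 bases before to 50 bases after the start, were found for 7 of 7 members, with 2 windows for Slfn8. Slfn8 and Slfn9 were identical at 83.4% of aligned window bases, while the other 20 pairs lay between 50.7% and 66.1%, with Slfn3 and Slfn4 at 53.6%. Gaps at the ends had no cost, so the aligned part differed between pairs. It ran from 142 bases (Slfn4 with Slfn9) to 295 of 300 bases (Slfn8 with Slfn9). The 66.1% of Slfn4 with Slfn8 rests on 171 bases. A 9-base word, ACTTCCTGG, was the longest shared by 4 or more members, and it was picked after the sequences had been seen. It stood in the windows of Slfn1, Slfn2, Slfn3 and Slfn4, the short and intermediate members, and in 0.843% of all 32851 windows on either strand. Read on the opposite strand it contains GGAA, the core letters that ETS transcription factors recognise. The stretches around it are shown 5′ to 3′ on the plus strand with the word in capitals, from chr11:83116731-83116769 (Slfn1), chr11:83065042-83065080 (Slfn2), chr11:83191273-83191311 (Slfn3) and chr11:83175098-83175136 (Slfn4).
Slfn1: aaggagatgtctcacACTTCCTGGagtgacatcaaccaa
Slfn2: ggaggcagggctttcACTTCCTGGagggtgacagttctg
Slfn3: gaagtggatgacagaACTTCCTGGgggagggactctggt
Slfn4: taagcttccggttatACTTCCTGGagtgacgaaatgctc
The word began 74 bases before the start in Slfn1, 55 in Slfn2, 42 in Slfn3 and 73 in Slfn4. In Slfn1, Slfn2 and Slfn4 the shared letters ran on to ACTTCCTGGAG, which 0.0731% of all windows held.

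The long members held another word. The core of the interferon-stimulated response element, the DNA element through which type I interferon switches on its target genes, was searched as GAAA, then any 2 bases, then GAAA, on both strands. Windows of Slfn5, Slfn8 and Slfn9 held it, beside 3.44% of all windows and 3.99% of the 27025 genes in the table. In Slfn8 it lay 48 to 39 bases before the start that is farther upstream, in Slfn9 45 to 36 bases before the start, and in Slfn5 155 to 146 bases before. The match read TTTCGTTTTC in both Slfn8 and Slfn9, whose windows were 83.4% identical. In Slfn5 it read GAAAAAGAAA and led straight into a run of A. The core of the gamma-activated site, TTCNNNGAA, was in 8.30% of all windows and in 0 of the members' windows. A match is a run of letters and not a measured binding site. The 250 bases before the start are shown 5′ to 3′ for Slfn2, the most abundant member (plus strand, chr11:83064862-83065111, capitals for ACTTCCTGG), and on the minus strand for Slfn8 (chr11:83020811-83021060) and Slfn9 (chr11:82991831-82992080), whose capitals mark the interferon element core as it reads on that strand.
Slfn2: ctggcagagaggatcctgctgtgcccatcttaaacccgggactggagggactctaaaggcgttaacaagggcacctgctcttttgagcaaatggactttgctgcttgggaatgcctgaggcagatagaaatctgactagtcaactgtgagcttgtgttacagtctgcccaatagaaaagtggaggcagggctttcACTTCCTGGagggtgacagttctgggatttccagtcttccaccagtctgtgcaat
Slfn8: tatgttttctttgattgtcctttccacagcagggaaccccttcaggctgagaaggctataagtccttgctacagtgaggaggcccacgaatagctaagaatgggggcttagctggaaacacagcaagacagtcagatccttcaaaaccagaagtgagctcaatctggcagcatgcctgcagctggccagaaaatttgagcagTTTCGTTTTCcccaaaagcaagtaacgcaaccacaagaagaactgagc
Slfn9: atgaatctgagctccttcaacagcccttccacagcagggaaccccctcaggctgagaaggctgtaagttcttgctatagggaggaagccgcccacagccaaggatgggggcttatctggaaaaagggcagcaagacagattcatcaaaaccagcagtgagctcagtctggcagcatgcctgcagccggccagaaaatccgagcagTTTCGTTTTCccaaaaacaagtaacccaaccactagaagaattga

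Libraries differed in depth and in features that no label explains. Library totals lay between 34978213 counts (replicate 1) and 118937382 counts (replicate 2), and no pair of libraries agreed within sampling noise. Replicates 1 and 2 had 278.4 and 315.9 TPM (transcript abundance scaled to exonic length and library total) of Xist, the RNA of the inactive X chromosome, against 1.25 and 0.586 in replicates 3 and 4, although the donor entry is the same on all 4. Malat1, a nuclear RNA, stood at 348.0 and 246.0 TPM in replicates 1 and 3 against 63.2 and 59.3 in replicates 2 and 4. Of 7 T cell markers 6 reached 1 TPM in every library, with Cd4 at 975.7 ± 29.3 TPM (SD, n = 4), and Cd8a was at 0.267 ± 0.185 TPM. Among the markers of other cells, Lyz2 and Fcgr1 of macrophages, S100a8, S100a9, Ly6g, Elane and Camp of neutrophils, Clec9a, Siglech and Itgax of dendritic cells, and Hbb-bs and Pf4 of red cells and platelets had 0 counts in all 4 libraries. Others reached 1 TPM in every library: 2 of 6 for B cells and 3 of 6 for NK cells, with summed levels of 3.70 to 7.92 and 37.5 to 40.7 TPM, 1 of 6 for dendritic cells (Zbtb46 at 2.56 ± 0.105 TPM), 1 of 6 for red cells and platelets (Itga2b at 1.72 ± 0.136 TPM) and 2 of 8 for macrophages (Cd68 and Adgre1).

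Slfn2 was by far the most abundant Schlafen gene in these T cells. Levels are given as TPM, which divide counts by exonic length and can be set side by side across genes. Slfn2 (ENSMUSG00000072620.3, chr11:83065112-83070678 on mm10, plus strand) stood at 784.5, 799.4, 730.5 and 755.8 TPM in replicates 1 to 4, a mean of 767.6 ± 30.6 (SD, n = 4). These values rest on 14737 to 48466 counts, and the SD was 3.99% of the mean, so the 4 libraries were close together. In such bulk samples fewer cells that express a gene and less of its RNA per cell cannot be told apart. Slfn2 ranked 137 among 21764 protein-coding genes. It made up 87.4% ± 1.51 (SD, n = 4) of the family's summed TPM of 878.2 ± 23.7. By raw counts, where long members weigh more, its share was 75.7% ± 2.26.

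Slfn1, the other short member and the one first tied to a halt in thymocyte growth, came next at a much lower level. It stood at 37.6, 46.5, 50.5 and 58.3 TPM in replicates 1 to 4, on 792 to 3210 counts (chr11:83116849-83122670, plus strand). Replicate 1 was lowest and replicate 4 highest, 1.55-fold apart. Its mean of 48.2 ± 8.60 TPM (SD, n = 4) was 15.9-fold below Slfn2, a difference of 4.01 ± 0.30 in log2(TPM + 0.1).

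The long members lay within a narrow band below Slfn1. Slfn9 (chr11:82978390-82991830, minus strand) stood at 20.5, 22.4, 26.1 and 23.2 TPM, a mean of 23.0 ± 2.31 (SD, n = 4), on 1380 to 4863 counts. Slfn5, a nuclear member (chr11:82951349-82964840, plus strand), stood at 13.4, 14.1, 15.1 and 14.2 TPM, a mean of 14.2 ± 0.719. Slfn8 (chr11:83002158-83020810, minus strand) stood at 10.2, 11.3, 12.9 and 11.8 TPM, a mean of 11.6 ± 1.12. All 3 were lowest in replicate 1 and highest in replicate 3. Slfn9 exceeded Slfn8 by 1.00, 0.97, 1.01 and 0.97 in log2(TPM + 0.1), a difference of 0.99 ± 0.02 (SD, n = 4), the smallest SD of the 21 pairs of members.

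The intermediate members, which resemble each other at 91.5% of coding bases, were far apart in level. Slfn3 (chr11:83191330-83215154, plus strand) stood at 13.4, 13.7, 14.7 and 11.99 TPM, a mean of 13.4 ± 1.10 (SD, n = 4), on 515 to 1704 counts. Slfn4, known from myeloid cells (chr11:83175186-83190216, plus strand), had 4, 37, 10 and 12 counts, or 0.0894, 0.256, 0.195 and 0.102 TPM. The exact Poisson 95% intervals of these TPM values were 0.0244 to 0.229, 0.180 to 0.353, 0.0933 to 0.358 and 0.0530 to 0.179, and cover counting error only. Slfn4 was the only member below 1 TPM, and it was so in every library. Of the 8 macrophage and monocyte markers 2 reached 1 TPM in every library, Cd68 at 13.5 ± 1.69 and Adgre1 at 1.48 ± 0.353 TPM (SD, n = 4), with a summed level of the list of 14.3 to 18.7 TPM, and of the 6 neutrophil markers 0 did. The part of such cells in the Slfn4 counts was not tested.

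With a level of at least 1 TPM in every library as the criterion, 6 of 7 members were detected. The same criterion was met by 24.8% of all genes and by 49.9% of protein-coding genes. Other genes of the Schlafen name were low or absent apart from one: the pseudogene Slfn10-ps stood at 29.8, 25.0, 31.4 and 27.6 TPM, above Slfn9 in every library. Slfn14, a member known from platelets and red cells, had 0 counts in all 4 libraries, which allows up to 0.0717, 0.0222, 0.0624 and 0.0274 TPM. Slfnl1 had 1 count in replicate 1 and 0 in the others. Slfn5os, an RNA gene on the strand opposite Slfn5, had 0 counts in all 4.

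**Figure D2:**
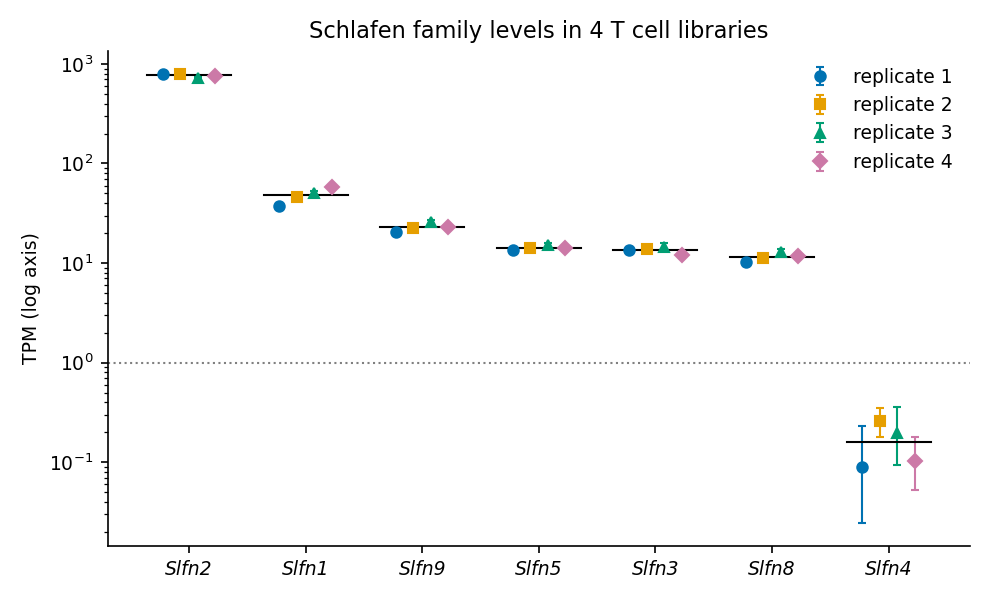
TPM of the 7 members on a log axis in replicates 1 to 4 (symbols), with the mean over 4 libraries as a horizontal line, exact Poisson 95% intervals as bars, and a dotted line at 1 TPM. Slfn2 lies near 768 TPM, 5 members lie between 10.2 and 58.3 TPM, and Slfn4 lies below 1 TPM in each library.

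The plot of levels by member shows the same order in all 4 libraries: Slfn2, Slfn1, Slfn9, Slfn5, Slfn3, Slfn8, Slfn4. All 21 pairs of members differed in the same direction in every library. Exact permutation of the signs over the 4 libraries (two-sided) gave p = 0.13 for each pair, the smallest p it can give, and 0.13 after Benjamini-Hochberg adjustment over the 21 pairs, so no pair could pass 0.05. For 19 of 21 pairs the ranges over the libraries did not overlap. Among neighbours in the order, Slfn1 exceeded Slfn9 by 1.05 ± 0.20 and Slfn9 exceeded Slfn5 by 0.69 ± 0.07 (log2 differences, SD, n = 4). Slfn5 and Slfn3 were not separated, since their difference of 0.08 ± 0.11 was smaller than its SD. Slfn3 and Slfn8 differed by 0.22 ± 0.16, and their ranges overlapped. Slfn8 exceeded Slfn4 by 5.53 ± 0.39. The order of close members depends on the length used: without division by length, in counts scaled to the library total (CPM), Slfn1 stood below Slfn9 (a difference of -0.62) and Slfn5 (-0.01) and Slfn3 below Slfn8 (-0.05), and with the longest coding transcript as length Slfn5 stood below Slfn3 (-0.63) and Slfn9 was no longer separated from Slfn3 (0.03 against 0.77).

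Similar sequence limits how far the counts of close members can be told apart. Reads that map to several places were not counted, since the option for them is absent from the command in the file headers. Of all 50-base words in the transcripts of a member, the share also found in transcripts of another gene was 0.606% for Slfn1, 4.27% for Slfn2, 11.1% for Slfn5, 11.3% for Slfn4, 11.9% for Slfn9, 14.6% for Slfn8 and 16.0% for Slfn3. The genes sharing words with Slfn8 were Slfn9 and Slfn10-ps, and those sharing most with Slfn3, of 69 genes, were Slfn4 and the pseudogene Gm11427. At 100 bases the shares fell to between 0 (Slfn1) and 6.40% (Slfn5, first of all with its antisense gene Slfn5os, which strand-specific counting keeps apart). For the pseudogene Slfn10-ps the share was 19.7% at 50 bases and 7.84% at 100. Words were compared with annotated transcripts only, and the reads lost were not counted. The levels of Slfn3, Slfn4, Slfn8, Slfn9 and Slfn10-ps are therefore uncertain by an amount that was not measured.

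No member was called more variable between the libraries than genes of its level. The variation of each gene was tested with edgeR's negative binomial goodness of fit against the trend of dispersion over all genes, with Benjamini-Hochberg adjustment. Of 14269 genes with enough counts, 66 (0.463%) passed an adjusted p of 0.05, and 41 passed when replicate 1 was left out. Of the 7 members 6 could be tested, Slfn4 being too low, and 0 passed. At an unadjusted p of 0.05, 1 member passed, Slfn1, beside 5.69% of all genes tested. The limma variance test likewise called 0 of 6 members and had Slfn1 alone under an unadjusted 0.05. In edgeR no member was under that limit without the filter on low counts or with a common dispersion. The p-values of Slfn1 there were 0.0527 and 0.128 before adjustment. The median range over libraries was 0.24 in log2 CPM for the 6 members and 0.27 for all genes tested.

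**Figure D3:**
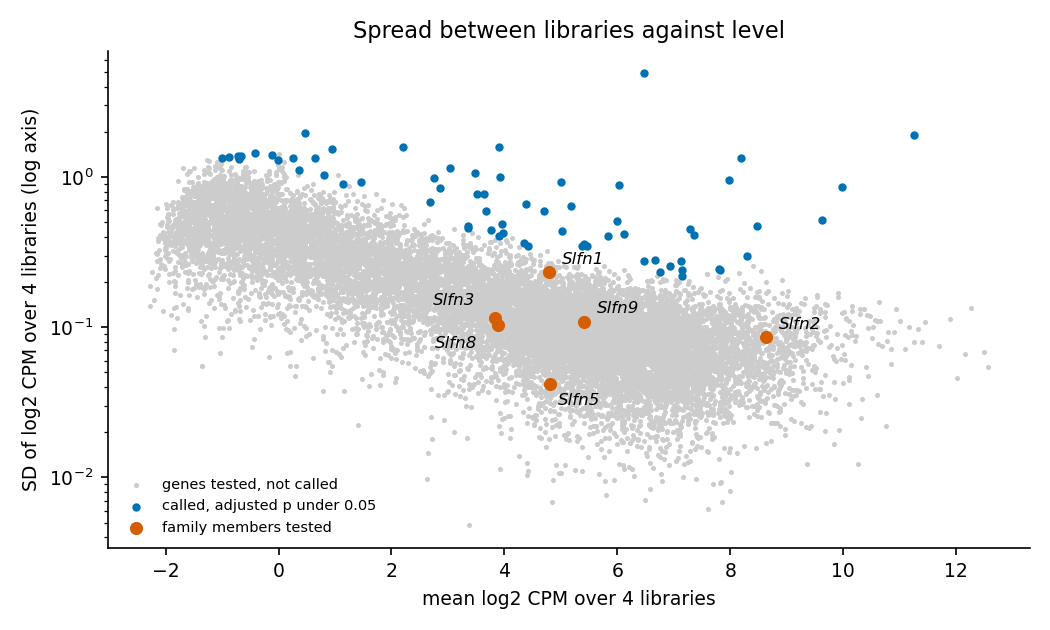
SD of log2 CPM over 4 libraries (log axis) against mean log2 CPM for the 14269 genes tested; grey points were not called, blue points had an adjusted p under 0.05 by edgeR's goodness of fit, and orange points are the 6 members tested. Slfn1 lies near the upper edge of the grey points and Slfn5 in their lower part.

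Among the 6 members tested, Slfn1 was the most variable. Slfn4, which was not tested, had a wider spread on 4 to 37 counts, with a coefficient of variation of 49.2% against 17.8% for Slfn1 in TPM. For Slfn1 the log2 CPM, relative to its own mean, was -0.28, -0.06, 0.05 and 0.29 in replicates 1 to 4, a 1.48-fold range (0.56 on the log2 scale). The test in edgeR gave an adjusted p of 0.526 (0.0125 before adjustment). Among all genes tested, 2.37% had a smaller p and 24.8% a wider range. The range fell to 0.35 without replicate 1 and to 0.32 without replicate 4, with edgeR p-values of 0.0857 and 0.217 before adjustment. These libraries held its lowest and highest values, so leaving out either had to narrow the range. Adjusted p-values for Slfn1 lay between 0.198 and 1 over the alternatives.

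The plot of SD against level places Slfn1 highest and Slfn5 lowest among the members. Slfn5 had a range of 0.09 in log2 CPM, the narrowest of the 6 members tested. Slfn2 had a range of 0.20, with replicate 1 highest (0.10) and replicate 3 lowest (-0.11). Slfn8 and Slfn9 had ranges of 0.24 and 0.25 and were highest in replicate 3. Slfn3 had a range of 0.26 and was lowest in replicate 4 (-0.17), where Slfn1 was highest. A range must narrow when the library at 1 of its ends is left out. Without replicate 4 that of Slfn3 was 0.09, and without replicate 3 those of Slfn9, Slfn8, Slfn2 and Slfn5 were 0.11, 0.14, 0.12 and 0.03. With the correction for GC content and length, the range of Slfn2 was 0.11. The edgeR adjusted p of these 5 members was 0.9999 in each case.

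Base composition moved with Slfn1, Xist moved against it, and B cell markers were highest in the library where Slfn1 was lowest. Over 12159 genes, log2 CPM relative to the gene mean correlated with GC content at Spearman's rho of -0.25, 0.0088, 0.066 and 0.26 in replicates 1 to 4, in the same order as Slfn1; this is a description across genes of the same libraries. With a correction for GC content and length, Slfn1 stood at -0.38, -0.04, 0.12 and 0.29, a range of 0.67 against 0.56 without it (edgeR adjusted p = 0.198). Xist was high in the libraries where Slfn1 was low. B cell markers summed to 7.92 TPM in replicate 1 and to 4.38, 3.70 and 5.17 TPM in replicates 2, 3 and 4. The part of Xist status and of B cell RNA in the Slfn1 values was not tested.

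Slfn1 was set beside genes of the pathway that is known to induce the family. The list of interferon signalling genes, from the receptors Ifnar1 and Ifnar2 through the kinases Jak1, Jak2 and Tyk2 to the transcription factor Irf9, held 13 genes, and all 13 were detected. The most abundant were the kinases Jak2 at 226.9 ± 8.79 and Jak1 at 130.0 ± 7.42 TPM and Socs1, which inhibits them, at 104.6 ± 8.83 TPM (SD, n = 4). The 1 gene of 13 called variable was Usp18, a protease that restrains interferon receptor signalling (1.71, 1.23, 4.70 and 3.87 TPM in replicates 1 to 4, a 3.79-fold range in CPM, edgeR adjusted p = 0.0456). The medians of the list, relative to each gene's mean, were -0.06, -0.03, 0.02 and 0.05 in log2 CPM. Those of all genes tested lay between -0.001 and 0.0033.

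The median of the interferon-induced genes had the same order of libraries as Slfn1. Of 24 such genes in the list, 16 were detected and 21 were tested. After adjustment 0 were called variable by edgeR, and 10 passed an unadjusted p of 0.05, beside 5.69% of all genes. The most abundant were Ifi27l2a at 1683 ± 266, Bst2, which tethers budding virus to the cell, at 387.6 ± 37.9 and Samhd1, which depletes nucleotides, at 63.5 ± 4.83 TPM (SD, n = 4). The medians of the list were -0.19, -0.11, 0.04 and 0.30 in replicates 1 to 4, and -0.23, -0.12, 0.11 and 0.29 with the correction for GC content and length. For 12 of the 21 tested genes replicate 1 was lowest and replicate 4 highest, as for Slfn1, beside 11.3% of all genes tested. The antiviral tag Isg15 stood at 12.8, 13.98, 29.4 and 29.1 TPM, and the RNA sensor Ddx58 at 4.71, 5.50, 7.91 and 8.52 TPM, both without a call (edgeR adjusted p of 0.0678 and 0.112). Isg15, like Usp18, was higher in both libraries with low Xist, replicates 3 and 4, than in both with high Xist, and the list medians divide in the same way. The part of Xist status in the values of these genes was not tested. The other members, several of them also known as interferon-inducible, did not share the order of Slfn1. Of the other 5 tested, none had replicate 1 lowest and replicate 4 highest, in CPM or with the correction. The long members did divide like Isg15, with both replicates 3 and 4 above both replicates 1 and 2, in CPM and with the correction. In CPM, Slfn8 stood at -0.11, -0.05, 0.13 and 0.03, Slfn9 at -0.10, -0.06, 0.15 and 0.01, and Slfn5 at -0.02, -0.035, 0.06 and -0.01. Slfn2 and Slfn3 did not divide in this way. In CPM the long members were highest in replicate 3 and Slfn2 in replicate 1, while with the correction Slfn5 was highest in replicate 4 (0.04) and Slfn2 in replicate 2 (0.05). These differences between members were not tested.

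**Figure D4:**
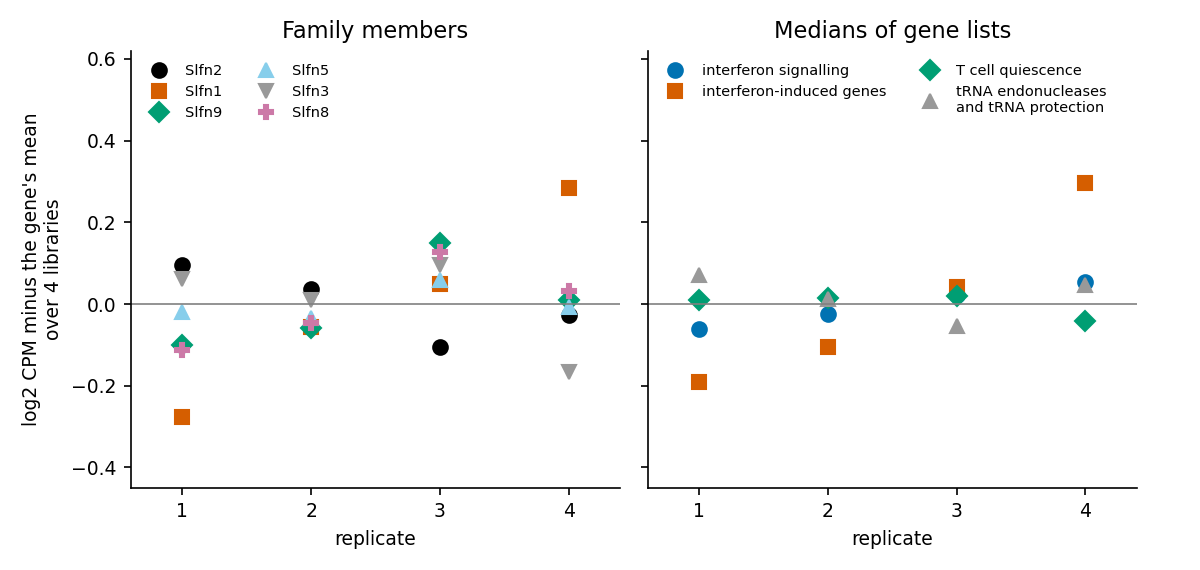
Log2 CPM minus the gene's mean over 4 libraries, by replicate, for the 6 members tested (left) and as medians of 4 gene lists (right). Slfn1 runs from -0.28 in replicate 1 to 0.29 in replicate 4 and the interferon-induced genes from -0.19 to 0.30, while the other members stay between -0.17 and 0.15.

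Genes with a pattern over the libraries most like that of Slfn1 were ranked by the root mean square difference of log2 CPM relative to the mean, over 4 libraries, among 6372 genes with a range of at least 0.3. The 5 nearest were Hsh2d (0.01), Ifi27 (0.02), Tsc22d3 (0.02), Trib3 (0.03) and Bloc1s1 (0.03). Ifi27 stood at 66.8, 83.4, 90.6 and 107.4 TPM and Hsh2d at 20.5, 25.9, 27.9 and 32.4 TPM. With 4 libraries such likeness is common: 294 genes lay within 0.1 of Slfn1, and none of the 5 nearest was called variable. The other members had ranges under 0.3 and were not ranked.

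Genes of the 2 T cell functions for which Slfn2 is best known gave no call of variation, and neither did Slfn2. By edgeR only 0.463% of all genes tested were called and 5.69% passed an unadjusted p of 0.05. The absence of calls in lists this short therefore sets them apart from nothing. All 16 genes of the T cell quiescence list were detected, and by edgeR 0 were called variable and 0 passed an unadjusted p of 0.05. Tcf7, a transcription factor of naive and memory T cells, stood at 310.8 ± 9.89 TPM, Btg1, an antiproliferative gene, at 173.0 ± 6.47 TPM and Bach2, a transcriptional repressor, at 108.1 ± 6.97 TPM (SD, n = 4). Slfn2, at 767.6 TPM, was above all 16. Of 14 genes for tRNA cleavage, processing and protection 13 were detected, and of the 13 tested 0 were called by edgeR and 0 passed an unadjusted 0.05. Nsun2, which methylates tRNA, stood at 229.6 ± 3.47 TPM, Rnh1, the inhibitor of angiogenin-type ribonucleases, at 202.2 ± 14.5 TPM and Elac2, which trims tRNA ends, at 98.9 ± 5.67 TPM. Ang, the gene of angiogenin, the nuclease from which Slfn2 shields tRNA, stood at 0, 1.36, 0.848 and 0.692 TPM.

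The members share their locus with other genes. The cluster spans 263.8 kb (chr11:82951349-83215154), and with 100 kb on each side 36 annotated genes lay in the window. Of the 29 genes that are no member 13 were detected, beside 24.8% of all genes, and 11 genes of the window had 0 counts. Order along the chromosome was Slfn5, Slfn9, Slfn8, Slfn2, Slfn1, Slfn4, Slfn3, so neighbours differed widely: Slfn2 at 767.6 TPM lies between Slfn8 at 11.6 and Slfn1 at 48.2, and Slfn4 at 0.161 between Slfn1 and Slfn3. Of the other protein-coding genes, Ap2b1 stood at 89.9 ± 5.41, Nle1 at 84.7 ± 4.35, Rad51d at 69.7 ± 2.37 and Rffl at 10.99 ± 0.460 TPM (SD, n = 4). Unc45b was at 0.0779 ± 0.0897 TPM, and Fndc8 had 0 counts in all 4 libraries. Of the other classes, the non-coding AI662270 stood at 77.4 to 94.8 TPM and the pseudogene Gm11427 at 21.4 to 29.8 TPM, next to Slfn3. No member's exons overlapped another gene on the same strand. Gm20234, on the strand opposite Slfn2, had 6 to 48 counts per library, between 0.0381% and 0.0989% of the counts of the pair. Of 17 genes of the window that could be tested, 0 were called variable by edgeR, and 1, Slfn1, passed an unadjusted p of 0.05. Over all genes tested 0.463% were called and 5.69% passed the unadjusted limit, so 1 of 17 is near the share of all genes.

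**Figure D5:**
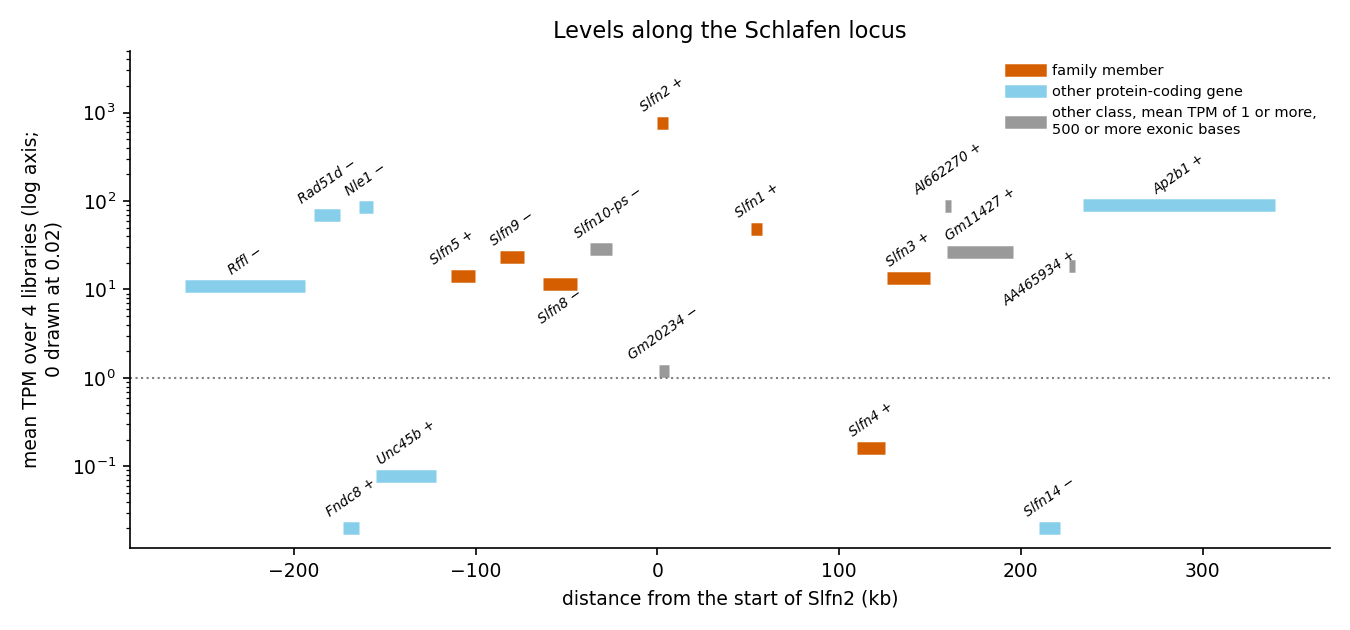
Mean TPM over 4 libraries (log axis, genes with 0 drawn at 0.02) against distance from the start of Slfn2 in kb, each bar spanning a gene and its sign giving the strand; orange are the 7 members, blue 7 of the 8 other protein-coding genes, grey other classes with at least 1 TPM and 500 exonic bases. Slfn2 stands above every neighbour, and Slfn4 is the one member under the dotted line at 1 TPM.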

How the data were processed

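RNA sequencing counts of 4 T cell libraries were used. The authors deposited raw counts of read pairs per gene, made with featureCounts 1.4.6-p4 on GENCODE release M13 exons (mm10) with the reverse strand setting, both ends mapped and neither multiply mapped nor multiply overlapping pairs counted, per the file headers; the aligner is named as STAR, with its version not given in the sources. Of the 50600 genes, 50376 matched GENCODE M21 by identifier, which gave symbols and classes. The labels speak of total RNA, while the linked library protocol is named for polyadenylated RNA.

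TPM were computed here from counts and exonic length. Within each library, members were subtracted from each other as log2(TPM + 0.1), a scale that understates the change of low genes, with an exact sign-flip permutation test and Benjamini-Hochberg adjustment over pairs. Variation between libraries was tested on counts with edgeR 4.0.16 (R 4.3.3; TMM scaling, filterByExpr with a minimum count of 10, trended dispersion, goodness of fit), adjusted over all genes and tested on simulated data. Alternatives were DESeq2 1.42.0 size factors, no filter, a common dispersion, the limma 3.58.1 variance test, a pseudocount of 1, other lengths, each library left out, and, added after seeing the data, a correction for GC content and length. For a count of 0 the upper limit at 95% confidence was taken as 3 counts. Limits and intervals cover counting error only, because libraries without molecular identifiers can count a molecule more than once. Depth ran from 34978213 counts in replicate 1 and 42274502 in replicate 3 to 95356041 in replicate 4 and 118937382 in replicate 2.

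Promoter windows came from RefSeq on GRCm38.p6, and coding sequences, aligned in place of the planned proteins, and 50-base words from GENCODE M21 transcripts. The genes named outside the family were the most abundant of each list, those called variable, the 5 most like a member with a range of at least 0.3, and defining markers; Isg15, Ddx58 and Ang were chosen after their values were seen. The members and lists were chosen with earlier results of these data known. A neighbouring gene of the locus is not reported here.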

Additional observations from a re-analysis of the deposited data

Results flagged for a closer look

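Of 61 sets of 4 values examined for a library far from the others, 3 had a gap above Dixon's 95% critical value for 4 values, and chance flags about 1 in 20, or 3.05 of 61. Gm27598, a microRNA gene inside the span of Slfn10-ps, stood at 12.2 TPM in replicate 3 against 5.62 to 6.53 TPM in the other libraries. It is 63 bases long and had 4, 15, 10 and 12 counts in replicates 1 to 4. The median of the T cell quiescence list was -0.042 in log2 CPM relative to the gene means in replicate 4 against 0.0093 to 0.0196 in the others. Jak1, a kinase of interferon receptors, stood at 119.0 TPM in replicate 1 against 132.5 to 134.7 TPM in the others. In CPM with TMM scaling its range was only 1.07-fold, with an edgeR p of 0.915 before adjustment. No member of the Schlafen family had such a library.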

How the results depend on the processing

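Without division by length, in CPM, Slfn1 minus Slfn9 was -0.62, Slfn1 minus Slfn5 -0.013 and Slfn3 minus Slfn8 -0.045 in log2, and with the length of the longest coding transcript Slfn5 minus Slfn3 was -0.63, each opposite in sign to the value with the full exonic length. The cause lies in the length used, since nothing else differed. Of the 21 pairs, 21 kept their direction in every library used, with a pseudocount of 1 and without each library in turn. By the same measure 18 did so in CPM and 19 with the longest coding transcript. With that length Slfn9 minus Slfn3 kept a positive mean of 0.03, but not the same sign in every library. The count of variable genes was 66, and it became 955 with a common dispersion and 27 with the limma variance test; the cause was not tested. It was 65 with DESeq2 size factors, 75 without the filter and 77 with the correction for GC content and length, and ranged from 41 to 68 when leaving out each library. No member was called under any of these settings. Slfn4 could be tested without the filter, without replicate 1 and without replicate 3, and was not called. The count of 6 detected members held under every alternative run. Depth limits Slfn4 (4 to 37 counts) and genes with 0 counts. No paired analysis was possible because there is only 1 group.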
